A study of Mus musculus with 8 samples.

Results

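GR18 and GR19 are single-cell libraries of SOX4KO tumor organoids, and their cells were compared with each other gene by gene to see how far both knockouts share 1 expression state. The organoids came from MMTV-PyMT; MMTV-Cre; Ecadherin-mCFP mouse mammary tumors, in which the MMTV promoter drives the PyMT oncogene and Cre in mammary epithelium and E-cadherin carries a cyan fluorescent tag. SOX4 was knocked out with CRISPR/Cas9, and the SOX4KO lines selected for the study were described as carrying a bi-allelic indel. The control library GR17 comes from a control line of the same model and serves here only to show which SOX4KO library departs. All organoids had been grown for 4 days after splitting to single cells, in medium with B27 and FGF2. Wells with at least 1000 unique molecular identifiers (UMIs, each counting 1 captured RNA molecule) outside the ERCC spike-in RNAs were kept as cells. This gave 369 cells of GR18 and 362 of GR19, 731 of 1100 cells in the single-cell part of the series. The labels do not say which of the SOX4KO lines sequenced in bulk (H7, M4 and H4) either library comes from. GR18 and GR19 have no replicate libraries, so line, plate and library cannot be told apart. No p-value was computed between GR18 and GR19, and intervals cover counting error only.

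SOX4 is a transcription factor of the SOX family that acts in embryonic development and is raised in many carcinomas. The mammary epithelium has an inner luminal layer, which makes milk proteins and carries keratins such as Krt8 and Krt18, and an outer basal or myoepithelial layer, which carries Krt5 and Krt14 and contracts to eject milk. Csn3 encodes kappa-casein, the protein that stabilizes casein micelles in milk, and Krt14 encodes a basal keratin. Organoids grown from PyMT tumors can hold cells of both kinds.

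The kept cells held 8009481 UMIs in GR18, 8296953 in GR19 and 7714119 in GR17, with medians of 20525, 21876 and 19845 per cell. The well numbers 1 to 384 are the same on all plates, so shared numbers are plate positions and not shared cells, and 8 wells were under the minimum on all 3 plates. ERCC spike-ins came to 1.61 UMIs per 100 other UMIs in GR18 against 0.777 in GR19 and 0.7997 in GR17. Among 21 spike-ins with at least 100 UMIs in each SOX4KO library, 0 differed by 2-fold between them in share of all spike-in UMIs. Transcripts of the 45S pre-ribosomal RNA row Rn45s took 3.38% of UMIs in GR18, 6.01% in GR19 and 5.01% in GR17, and the mitochondrial ribosomal RNAs took 2.37%, 3.31% and 2.61%. The nuclear long noncoding RNA Malat1 measured 875 counts per 1000000 UMIs (CPM) in GR18, 1802 CPM in GR19 and 603 CPM in GR17. These RNAs were higher in GR19. Values without mitochondrially encoded genes and Rn45s in the total are given at the end, while Malat1 was not left out. Any further part of these RNAs in the differences below was not tested. Sox4 itself measured 82.5 CPM in GR18 (95% exact Poisson interval 76.4 to 89.1), 110 CPM in GR19 (103 to 118) and 118 CPM in GR17 (111 to 126). Counts per gene do not show an indel, so these levels do not check the labels.

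Scaled to each library's own UMI total, both SOX4KO libraries expressed most genes at like levels. Levels scaled to the ERCC spike-ins were not compared. Of 6337 genes with at least 20 CPM on average over GR18 and GR19, 49 differed by at least 2-fold (0.773%), 25 of them higher in GR19 (0.395%) and 24 higher in GR18 (0.379%). Log2 differences are GR19 minus GR18, of CPM of the library sums with 1 CPM added, and their median over all compared genes was -0.05. Relative to GR17, GR19 was the farther library for 29 of the 49 genes and GR18 for 20. Over all 6337 compared genes GR18 was the farther library for 2945, so the 49 genes are not read as a departure of GR19 alone. The control lay below both SOX4KO libraries for 23 genes, above both for 11 and between them for 15. The genes set apart by size included luminal and basal markers, neutrophil attractants and an unbroken run of genes at 1 end of chromosome 1, each described in turn.

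**Figure D1:**
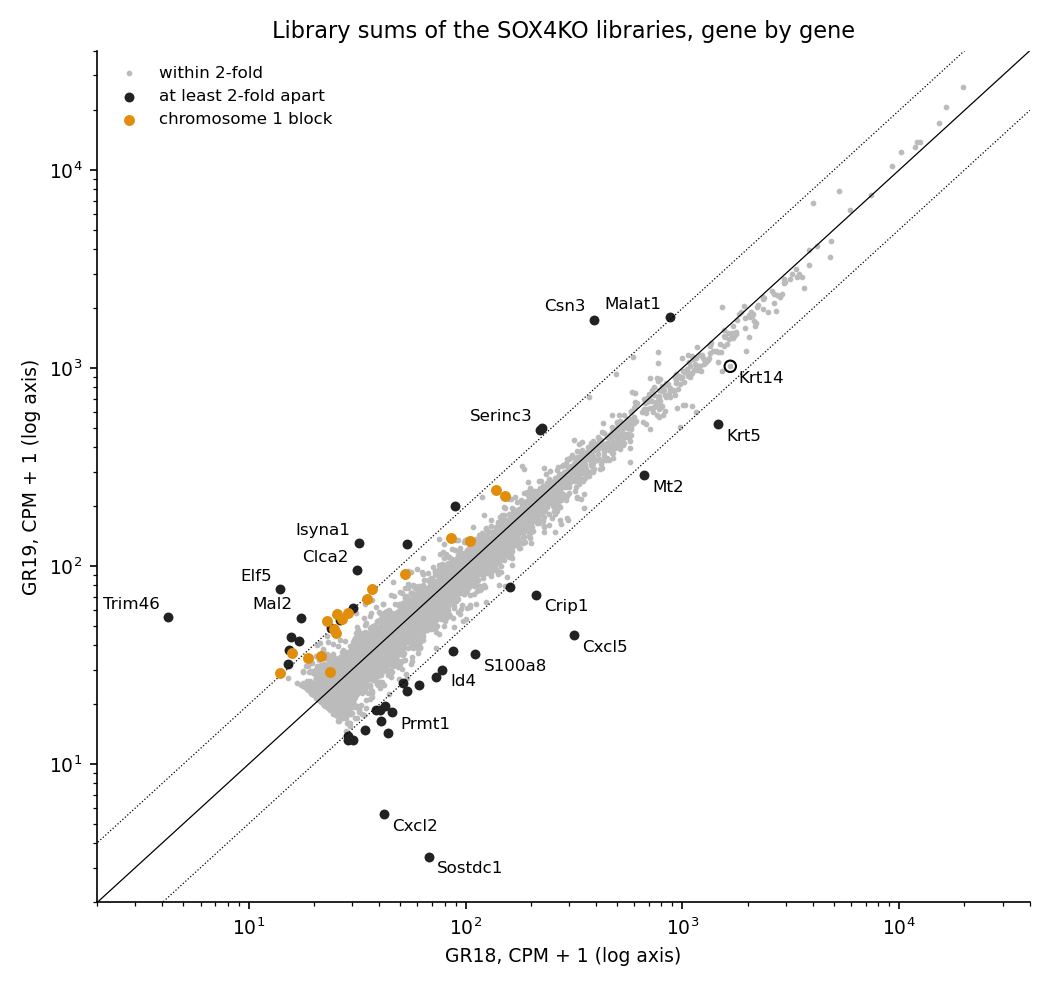
CPM plus 1 of each of 6337 compared genes in GR18 (horizontal) and GR19 (vertical), both on log axes, with lines at equality (solid) and at 2-fold (dotted). Black points are the genes at least 2-fold apart, orange points the run of 18 chromosome 1 genes (the block), and Krt14 is circled inside the 2-fold lines.

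The marker Csn3 was higher in GR19. It measured 101 CPM in GR17, 391 CPM in GR18 (377 to 404) and 1754 CPM in GR19 (1726 to 1783), from 781, 3128 and 14556 UMIs. GR19 thus held 4.49 times the GR18 level (exact conditional interval 4.32 to 4.67), and both SOX4KO libraries were above the control. At least 1 Csn3 UMI was seen in 97 of 369 cells of GR17, 252 of 369 of GR18 and 344 of 362 of GR19. The median cell held 0, 1 and 8.5 Csn3 UMIs and the highest cell 94, 165 and 377. The 10 cells with the most Csn3 UMIs held 62.5% of them in GR17, 30.2% in GR18 and 18.7% in GR19, so the GR19 level was spread over more cells. When those cells were left out, the log2 difference was 2.38 in place of 2.16.

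Free RNA in the wells can add UMIs to cells that do not express a gene, so the wells under the minimum were read as well. These wells held 1 Csn3 UMI among 4341 UMIs in GR18, 18 among 5150 in GR19 and 0 among 4513 in GR17, and 11 of the 18 lay in 1 well. Krt14 had 4, 7 and 7 UMIs in the same wells of GR18, GR19 and GR17. Within basal-like cells, defined below, 59.04% of GR18 cells and 91.96% of GR19 cells had a Csn3 UMI, at median depths of 19647 and 20370 UMIs. For each UMI of the alpha-casein gene Csn1s1 there were 0.642 Csn3 UMIs in luminal-like and 0.376 in basal-like cells of GR18, and 3.21 and 0.856 in those of GR19. The ratio was thus not the same in both cell classes of a library. Whether the Csn3 UMIs of basal-like cells came from those cells was not tested.

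The marker Krt14 was lower in GR19, by less than 2-fold. It measured 1586 CPM in GR17, 1662 CPM in GR18 (1633.5 to 1690) and 1019 CPM in GR19 (997 to 1041), a 1.63-fold difference between the SOX4KO libraries (1.59 to 1.68). GR17 and GR18 were near each other and GR19 was below both. A Krt14 UMI was seen in 366, 367 and 348 cells of GR17, GR18 and GR19, with medians of 27, 27 and 16 UMIs per cell. Csn3 and Krt14 were seen together in 251 GR18 cells (68.02%) and 330 GR19 cells (91.2%), against 96 GR17 cells (26.02%). These shares of joint detection carry the same limit on free RNA.

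Elf5, a transcription factor of luminal progenitors and milk-producing alveolar cells, had a higher ratio than Csn3 from far fewer UMIs. It measured 10.5 CPM in GR17, 12.98 CPM in GR18 and 75.4 CPM in GR19, 5.81 times higher in GR19 than in GR18 (4.71 to 7.22). Its UMIs were seen in 45, 64 and 213 cells. GR17 and GR18 had overlapping intervals (8.34 to 13.1 and 10.6 to 15.7 CPM), and GR19 alone was above them. Not every milk gene followed. The milk and secretory list had a median log2 difference of -0.08 over 10 genes, 5 of them higher in each library, which turned to 0.09 without mitochondrially encoded genes and Rn45s in the total. Csn1s1 measured 689 CPM in GR18 and 706 CPM in GR19, against 50.04 CPM in GR17. Wfdc2 and Wfdc18, secreted whey acidic protein domain genes, were lower in GR19 at 334 against 573 CPM and 37.4 against 72.4 CPM. Spp1, the matrix and milk protein osteopontin, was higher in GR19 at 937 against 492 CPM.

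Among the basal genes, Krt5, the keratin partner of Krt14, measured 1867 CPM in GR17, 1466 CPM in GR18 and 519 CPM in GR19, 2.82-fold lower in GR19 than in GR18 (2.73 to 2.93). It was seen in 354, 341 and 242 cells, and GR19 was the low library. Sostdc1, a secreted antagonist of Wnt and BMP signals, had the lowest ratio of all compared genes. It measured 103 CPM in GR17, 66.8 CPM in GR18 and 2.41 CPM in GR19 (1.47 to 3.72), a 27.7-fold difference between the SOX4KO libraries (17.8 to 45.7). Its UMIs were seen in 191 cells of GR17, 149 of GR18 and 6 of GR19. Id4, a helix-loop-helix regulator of basal mammary cells, measured 115, 76.8 and 28.9 CPM in GR17, GR18 and GR19. Sparc, a matrix glycoprotein, was high in GR18 at 1152 CPM, while GR17 and GR19 stood at 593 and 595 CPM. Trp63, the master factor of the basal lineage, was close in both SOX4KO libraries at 79.8 and 64.96 CPM. The contractile markers Acta2 and Tagln had at most 3 UMIs in any library, and Myl9, a myosin light chain, had 13, 5 and 6 UMIs in GR17, GR18 and GR19.

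The chemokine genes Cxcl2 and Cxcl5, close together on chromosome 5, encode attractants of neutrophils and were lower in GR19. Cxcl5 measured 254 CPM in GR17, 314 CPM in GR18 and 43.9 CPM in GR19, and was seen in 223, 171 and 79 cells. The 10 highest cells held 59.6% of its UMIs in GR18 and 60.99% in GR19, and the log2 difference without them was -2.82, against -2.81 with them. Cxcl2 measured 1.30, 41.1 and 4.58 CPM, but 10 cells held 96.7% of its 329 GR18 UMIs, and the highest cell 227. Without the 10 highest cells of each library its log2 difference was -0.80 in place of -2.91, so the Cxcl2 value rests on a few cells. S100a8, a calcium-binding alarmin subunit, measured 16.9 CPM in GR17, 110 CPM in GR18 and 34.95 CPM in GR19. Its 10 highest cells held 80% of its UMIs in GR17, 54.4% in GR18 and 43.1% in GR19. Without them its log2 difference was -1.29 in place of -1.62. In the bulk control and SOX4KO lines Cxcl2 measured 0 CPM, Cxcl5 0.25 to 3.61 CPM and S100a8 0 to 1.64 CPM. Why these genes were so low in bulk was not tested.

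Some genes with wide expression were lower in GR19 in each of the 5 clusters of cells described below. Snd1, a nuclease-domain coactivator and RNA-binding protein, measured 154 CPM in GR17, 159 CPM in GR18 and 77.7 CPM in GR19, with log2 differences of -1.22 to -0.86 over those clusters. Prmt1, the main arginine methyltransferase of type I, measured 71.6, 44.9 and 17.2 CPM in GR17, GR18 and GR19. Arpc3, a subunit of the Arp2/3 actin nucleator, measured 54.8, 59.8 and 24.1 CPM. GR19 was the low library for these 3 genes. Mt2, a metal-binding metallothionein, measured 723, 662 and 286 CPM. Mt1, its neighbour, was named after its values were seen and measured 780, 976 and 502 CPM. Crip1, a small LIM-domain protein, was high in GR18 at 210 CPM, against 44.7 CPM in GR17 and 70.6 CPM in GR19. Ifi27l2a, an interferon-induced gene, measured 1.04, 72.2 and 26.5 CPM. The others of the 15 lowest ratios, Tspan18, Scrg1, Gng11 and Osr1, were 2.404 to 3.20 times higher in GR18.

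Among the genes higher in GR19, Trim46, a microtubule-bundling protein known from the start of axons, had the highest ratio. It measured 11.02 CPM in GR17 (8.80 to 13.6), 3.25 CPM in GR18 (2.12 to 4.76) and 54.2 CPM in GR19 (49.3 to 59.5), 16.7 times higher in GR19 than in GR18 (11.3 to 25.9). Its UMIs were seen in 69, 18 and 182 cells, and the control lay between the SOX4KO libraries. Isyna1, the enzyme that makes inositol phosphate from glucose 6-phosphate, also had the control in between, at 66.2 CPM in GR17, 31.2 CPM in GR18 and 129 CPM in GR19. Clca2, a regulator of chloride channels, had no UMI in 369 GR17 cells, where 3 UMIs would be 0.389 CPM, and measured 30.5 CPM in GR18 and 94.6 CPM in GR19. Mal2, a protein of apical transport in epithelia, measured 6.22, 16.4 and 53.9 CPM in GR17, GR18 and GR19. Car2, carbonic anhydrase 2, measured 15.9, 88.1 and 201 CPM, and the secreted protein gene Crispld2 132, 224 and 496 CPM. Cstf2t, a factor of mRNA cleavage and polyadenylation, was instead low in GR18 at 14.4 CPM, against 38.1 CPM in GR17 and 36.8 CPM in GR19. Synm, Prtn3 and Ogfrl1 were 2.43 to 2.91 times higher in GR19.

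**Figure D2:**
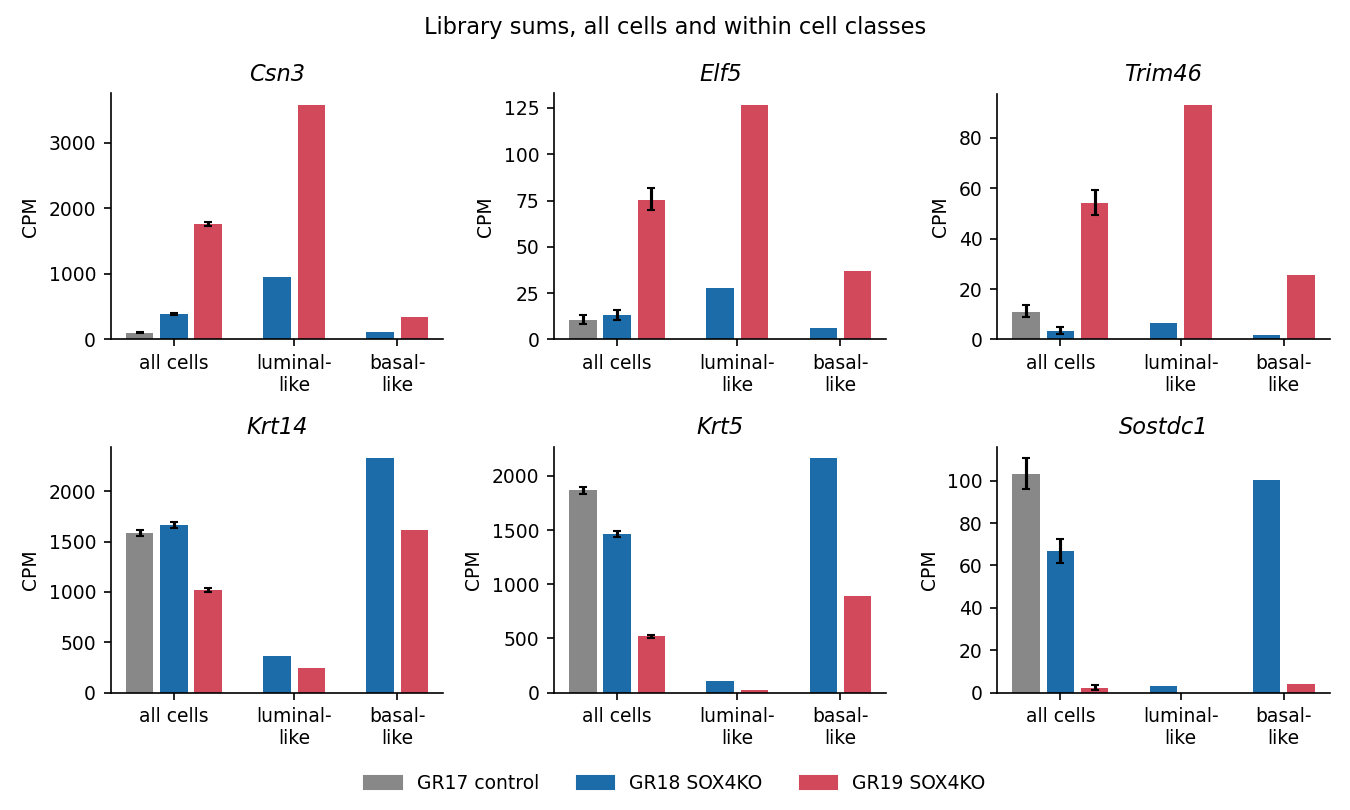
CPM of 6 genes in all kept cells of GR17, GR18 and GR19 (left bars, with 95% exact Poisson intervals) and in the luminal-like and basal-like cells of GR18 and GR19. GR19 bars are higher than GR18 bars for Csn3, Elf5 and Trim46 and lower for Krt14, Krt5 and Sostdc1, in all cells and in both classes.

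To compare like cells, all wells were clustered and each difference was read again within clusters. Of 7 clusters, 5 held at least 20 cells of both SOX4KO libraries, and the other 2 held mostly control cells. Clusters 4 and 5 were luminal-like, with 10 of 14 fixed luminal markers and 0 of 12 basal markers above their mean over the clusters. Clusters 1, 3 and 7 were basal-like, with 5 to 8 basal markers and 1 to 3 luminal markers above that mean. Csn3 was itself a leading gene of the luminal-like clusters, genes known from low oxygen (Ndrg1, Bnip3 and Vegfa) were among the 10 leading genes of cluster 1, and replication and mitosis genes among those of clusters 3 and 7, so cluster sizes are given only as cell numbers. The luminal-like class held 108 GR18 cells, most of them (63) in cluster 5, and 131 GR19 cells, most of them (77) in cluster 4. The basal-like class held 249 GR18 and 224 GR19 cells. All 49 genes kept their direction in both classes, and 46 in each of the 5 clusters. Both classes hold most of the cells whose sums were used to choose the 49 genes, so this agreement is no separate check.

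Within luminal-like cells, Csn3 measured 948 CPM in GR18 and 3570 CPM in GR19, and within basal-like cells 112 and 336 CPM. Elf5 measured 27.6 and 126 CPM in luminal-like cells and 6.11 and 37.1 CPM in basal-like cells. Krt5 measured 2161 and 897 CPM in the basal-like cells of GR18 and GR19, and Krt14 2325 and 1614 CPM. Sostdc1 was seen in 140 of 249 basal-like cells of GR18 and 6 of 224 of GR19. The markers thus differed within a class of cells as well as between the libraries as a whole. Cxcl5 differed more among luminal-like cells, at 652 and 34.4 CPM, than among basal-like cells, at 152 and 51.4 CPM, a contrast that was not tested. Trim46 was higher in GR19 in both classes, at 92.9 against 6.51 CPM in luminal-like cells and 25.6 against 1.72 CPM in basal-like cells.

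When the compared genes were laid out in chromosome order, an unbroken run of 18 genes at 1 end of chromosome 1 was lower in GR18. Order came from the RefSeq annotation of GRCm38.p6, which placed 6300 of the 6337 genes on the chromosome the files give. That build differs from the one named for the files, so only the order was used. The run goes from Marc2 to Cr1l, the last compared gene of the chromosome, and was chosen after its values were seen, so its values are a description. All 18 genes were higher in GR19 than in GR18, with a median log2 difference of 0.91 (0.29 to 1.21), and 7 of them were among the 49 genes past 2-fold. Against GR17, the median of GR18 was -0.91 (-1.43 to -0.03) and that of GR19 was 0.06 (-0.57 to 0.46), and GR18 was the farther library for 16 of the 18. At the edge of the run, Marc2 had a difference of 0.79 and Mia3, the gene before it, one of 0.23. The 50 compared genes before the run had a median of -0.01.

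The run holds genes of unrelated roles. Iars2 and Eprs encode aminoacyl-tRNA synthetases, of mitochondria and of the cytosol. Iars2 measured 31.2 CPM in GR17, 14.9 CPM in GR18 and 35.6 CPM in GR19, and Eprs 229, 137 and 241 CPM. Dtl and Cenpf belong to the S-phase and mitosis lists, as a replication-coupled ubiquitin ligase adaptor and a kinetochore protein. Dtl measured 56.6, 25.8 and 53.2 CPM and Cenpf 78.9, 35.96 and 75.7 CPM in GR17, GR18 and GR19. For these 4 genes GR18 was the low library, and GR17 and GR19 were near each other. Lpgat1, an acyltransferase of phospholipids, measured 45.6, 24.6 and 56.05 CPM, Cr1l, a membrane regulator of complement, 40.8, 21.8 and 51.7 CPM, and Kctd3 54.6, 27.8 and 56.8 CPM. Angel2, named after its values were seen, measured 28.4, 12.98 and 27.96 CPM. Other genes of the run, also named after their values were seen, included Marc2, Bpnt1, Rrp15, Ptpn14, Smyd2, Atf3, Sertad4, A130010J15Rik and Lamb3. Lamb3, a laminin chain of basal cells, measured 106, 104 and 132 CPM and had, with A130010J15Rik, the smallest differences. A further 16 genes placed within the run had 5 to 20 CPM, and 16 of them were higher in GR19, with a median log2 difference of 1.03.

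No other stretch of the genome behaved alike. Running medians over 15 neighbouring genes lay between -0.35 and 0.22 in all 5676 windows of the other chromosomes, while 11 windows of chromosome 1 were past 0.5, with a highest value of 0.95. Around several genes with large ratios elsewhere the neighbours differed little. Cxcl2 and Cxcl5 were both lower in GR19, but Cxcl1, which lies between them among the compared genes, differed by less than 2-fold. Mt2 and its neighbour Mt1 were both lower in GR19. Around Clca2 the highest of the compared neighbours stood at 0.95. The 4 compared genes around Csn3 had a median of -0.02, those around Elf5 of -0.21, those around Trim46 of -0.24 and those around Snd1 of -0.14.

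**Figure D3:**
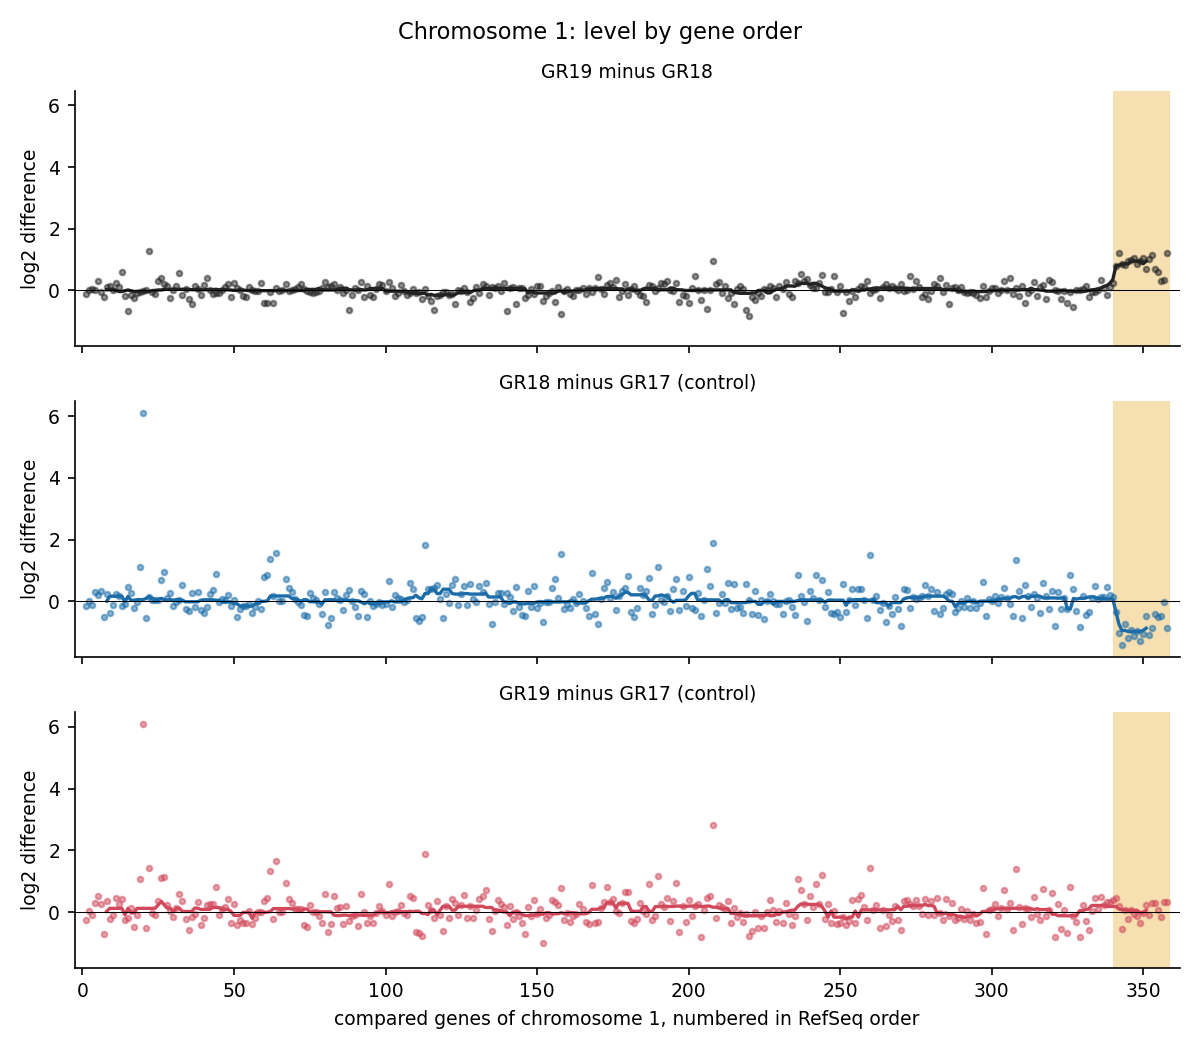
Log2 differences of the compared genes of chromosome 1 in RefSeq order (1 point per gene, horizontal axis the gene's number in that order), for GR19 minus GR18 and for each SOX4KO library minus the control GR17, with running medians over 15 genes. In the shaded run of 18 genes the GR18 points lie below the control (median -0.91) and the GR19 points around it (median 0.06).

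The difference was spread over the cells and not held by a few of them. The 18 genes together measured 835 CPM in GR18 (815 to 855), 1438 CPM in GR19 (1413 to 1464) and 1367 CPM in GR17 (1341 to 1393), a ratio of 1.72 between the SOX4KO libraries (1.67 to 1.77). Over single cells the median of their summed CPM was 805 in GR18 (quartiles 617 and 1002), 1383 in GR19 (1120 and 1704) and 1323 in GR17 (1138 and 1549). In GR18, 344 of 369 cells (93.2%) were under the GR19 median, and in GR17 208 of 369 (56.4%). The 50 genes before the run had close medians of 4389, 4323 and 4644.5 CPM in GR18, GR19 and GR17. Within the 5 clusters, the summed ratio of GR19 to GR18 was 1.56 to 1.83, and 16 to 18 of the 18 genes were higher in GR19.

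The bulk libraries of the study, which the rule above did not use, hold the same genes. Bulk values average all cells of a line, so fewer cells of a type and less RNA per cell cannot be told apart in them. Against the mean log2 of both controls, the 18 genes had medians of -1.08 in H7, -1.27 in M4 and -0.24 in H4, beside medians of -0.15, -0.20 and -0.11 over 5906 compared genes with a mean of at least 5 CPM in the control lines. In H7 and in M4, 16 of the 18 genes were below both controls, and in H4 14 of them, beside 56.1% (H7), 59.3% (M4) and 53% (H4) of the 5906 compared genes. Iars2, as an example, measured 110 and 120 CPM in the controls WT1 and WT3, 44.3 CPM in H7, 34.8 CPM in M4 and 93.1 CPM in H4. H7 and M4 were low and H4 was nearer to the controls. Of 18 other genes of at least 5 CPM in the controls that lie within the run by position, 17 were below both controls in H7, 15 in M4 and 4 (22.2%) in the line H4, with H4 at a smaller share than over the compared genes. Lamb3 was above both controls in all 3 SOX4KO lines, at 1021, 972 and 1278 CPM against 786 and 781 CPM. No test was run on this stretch in bulk, since the controls number 2 lines, and nothing in the labels ties these lines to GR18 or GR19.

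**Figure D4:**
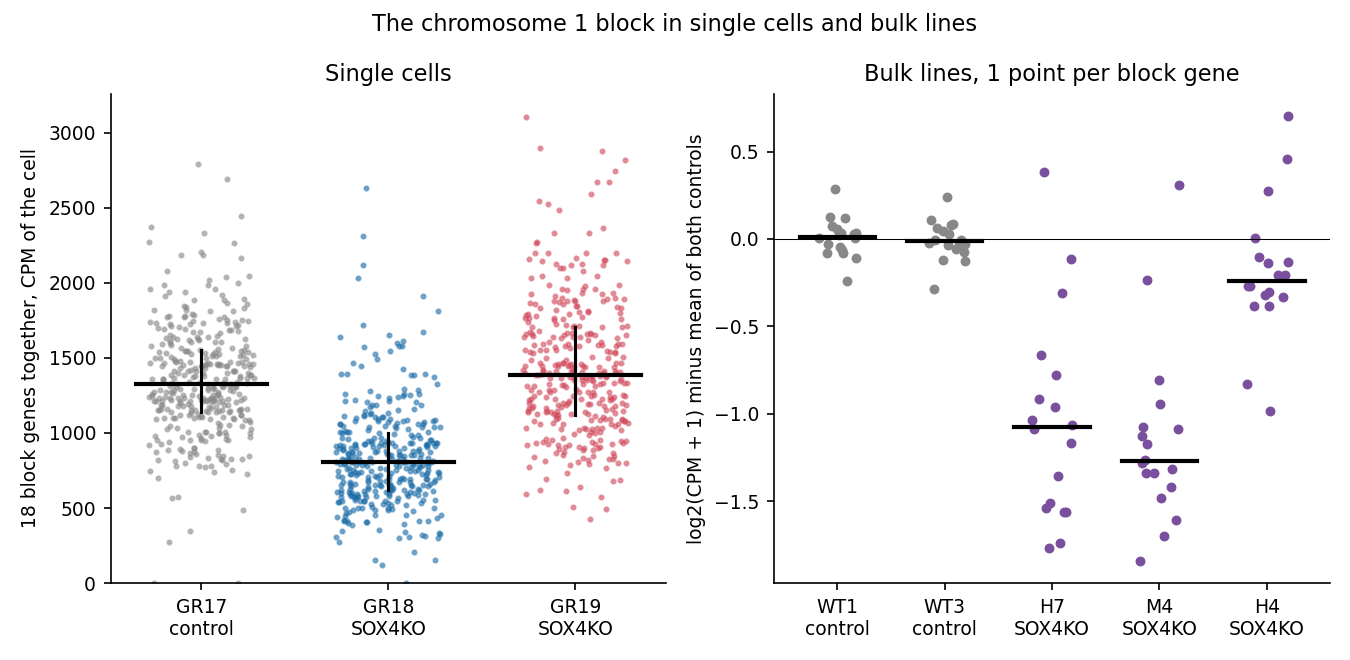
Left, summed CPM of the 18 chromosome 1 genes in each kept cell, with the median (thick line) and quartiles (thin line). Right, log2(CPM + 1) of each of these genes in each bulk line minus the mean of both controls, with the median over genes as a line, which lies lowest in M4 (-1.27) and H7 (-1.08) and nearer to 0 in H4 (-0.24).

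The genes that set GR18 and GR19 apart also varied among the bulk SOX4KO lines. The range of log2(CPM + 1) over H7, M4 and H4 had a median of 1.26 over the 42 genes past 2-fold with a mean of at least 5 CPM in these lines, against 0.45 over all 5896 such genes. The lines of GR18 and GR19 may be among these lines, so the bulk values are not counted as independent of the single-cell values. A range of at least 1 was seen for 25 of the 42 (59.5%) and for 380 of the 5896 (6.45%). Without the run on chromosome 1 the median was 1.33 over 35 genes. Csn3 measured 357 and 291 CPM in WT1 and WT3, and 719, 150 and 2245 CPM in H7, M4 and H4. Krt14 measured 249 and 258 CPM in the controls and 104, 548 and 184 CPM in H7, M4 and H4. Sostdc1 measured 66.2 and 17.1 CPM in the controls and 16.4, 85.6 and 2.59 CPM in these lines, and Trim46 10.4 and 7.05 CPM in the controls and 3.54, 1.97 and 26.8 CPM. For Csn3, Sostdc1 and Trim46, H4 was the outermost line, high for Csn3 and Trim46 and low for Sostdc1. Elf5 measured 214 and 128 CPM in the controls and 114, 16.4 and 169 CPM in H7, M4 and H4, so that M4 was the low line and H4 lay between the controls.

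Gene lists were read by their counts and their median beside the median of -0.05 over all compared genes, of which 3756 of 6337 were lower in GR19. The list of hypoxia and glycolysis genes stood lowest among lists with at least 5 compared genes, with a median of -0.44 over 27 genes, 26 of them lower in GR19, none by 2-fold. Both SOX4KO libraries were above the control on this list, with medians of 0.97 in GR18 and 0.61 in GR19 against GR17. Gapdh, Aldoa and Tpi1, enzymes of glycolysis, measured 1112, 1973 and 1526 CPM in GR18 and 643, 1221 and 960 CPM in GR19. Bnip3, a mitophagy receptor induced by low oxygen, measured 34.2 CPM in GR17, 293 CPM in GR18 and 174 CPM in GR19. The list stood at -0.41 in luminal-like and -0.36 in basal-like cells. The cytosolic ribosomal proteins had a median of -0.23, and 72 of 72 were lower in GR19, which also held more Rn45s and Malat1 RNA as given above. Their summed level was 120830 CPM in GR17, 105440 CPM in GR18 and 90741 CPM in GR19.

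Luminal identity genes had a median of 0.20, with 12 of 16 higher in GR19 and only Elf5 past 2-fold. Cldn7, a tight-junction claudin, measured 21.97 CPM in GR18 and 43.3 CPM in GR19, and Krt18 228 and 312 CPM. Ehf, an epithelial ETS factor next to Elf5 on chromosome 2, went the other way at 122 and 77.4 CPM. So did the fixed luminal marker Cited1, at 27.6 CPM in GR18 and 11.9 CPM in GR19. Cited1 fell just under the minimum of 20 CPM on average, was not compared, and was named after its values were seen. Basal and myoepithelial genes had a median of -0.26, with 13 of 18 lower in GR19 and Krt5 and Id4 past 2-fold, but within basal-like cells the median was -0.11. Acute phase and chemokine genes had a median of -0.29 over 18 genes, 3 of them past 2-fold, while Lcn2, the iron-scavenging lipocalin, was close at 5955 and 6264 CPM. Mesenchymal genes (-0.24 over 10) and S100 and annexin genes (-0.25 over 11) had 0 members past 2-fold. Csn1s1, Trp63 and Lcn2 are members of the lists that were named after their values were seen.

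The cycle lists differed little in median between the libraries. S-phase genes had a median of 0.08 over 40 genes and G2 and M-phase genes of -0.02 over 48. Of the S-phase genes 29 were higher in GR19, and of the G2 and M-phase genes 23, beside 2581 of all 6337 compared genes. The only member past 2-fold on each was Dtl and Cenpf, both of the chromosome 1 run. Top2a, the replication topoisomerase, measured 215 and 217 CPM in GR18 and GR19, against 345 CPM in GR17, and was named after its values were seen. Interferon and antigen presentation genes had a median of -0.18 over 19 genes and stood at 1.09 in GR18 and 1.10 in GR19 against GR17. The bulk lines did not show this for the members named here. Isg15, a ubiquitin-like interferon-induced protein, measured 11.8, 143 and 108 CPM in GR17, GR18 and GR19, but 368 and 214 CPM in the bulk controls and 198, 56.4 and 70.1 CPM in H7, M4 and H4. Ifi27l2a measured 791 and 761 CPM in the bulk controls and 573, 199.98 and 129 CPM in H7, M4 and H4. Immediate early and heat shock genes (0.01 over 26), stress response genes of the endoplasmic reticulum and amino acids (-0.07 over 20), lipid synthesis genes (0.01 over 24) and imprinted growth genes (-0.08 over 5) had 0 members past 2-fold. Of the 2 mitochondrially encoded genes compared, mt-Rnr1 and mt-Rnr2, both were higher in GR19, at 6826 against 3986 CPM and 26283 against 19681 CPM.

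Markers of other cell types were low or absent. The highest was Postn, at 33.1, 29.8 and 16.2 CPM in GR17, GR18 and GR19, which was also among the 10 leading genes of basal-like cluster 1. Of 10 fibroblast markers, Col1a2, Dcn, Lum and Thy1 had no UMI in any library, and their summed level was 45.1, 40.2 and 23.4 CPM in GR17, GR18 and GR19, most of it Postn. The 12 leukocyte markers summed to 2.87 CPM in GR18 and 2.89 CPM in GR19, with 1 Ptprc UMI in GR18 and 0 in GR19. The 8 endothelial markers summed to 2.87 and 2.65 CPM. The 6 adipocyte markers had no UMI.

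**Figure D5:**
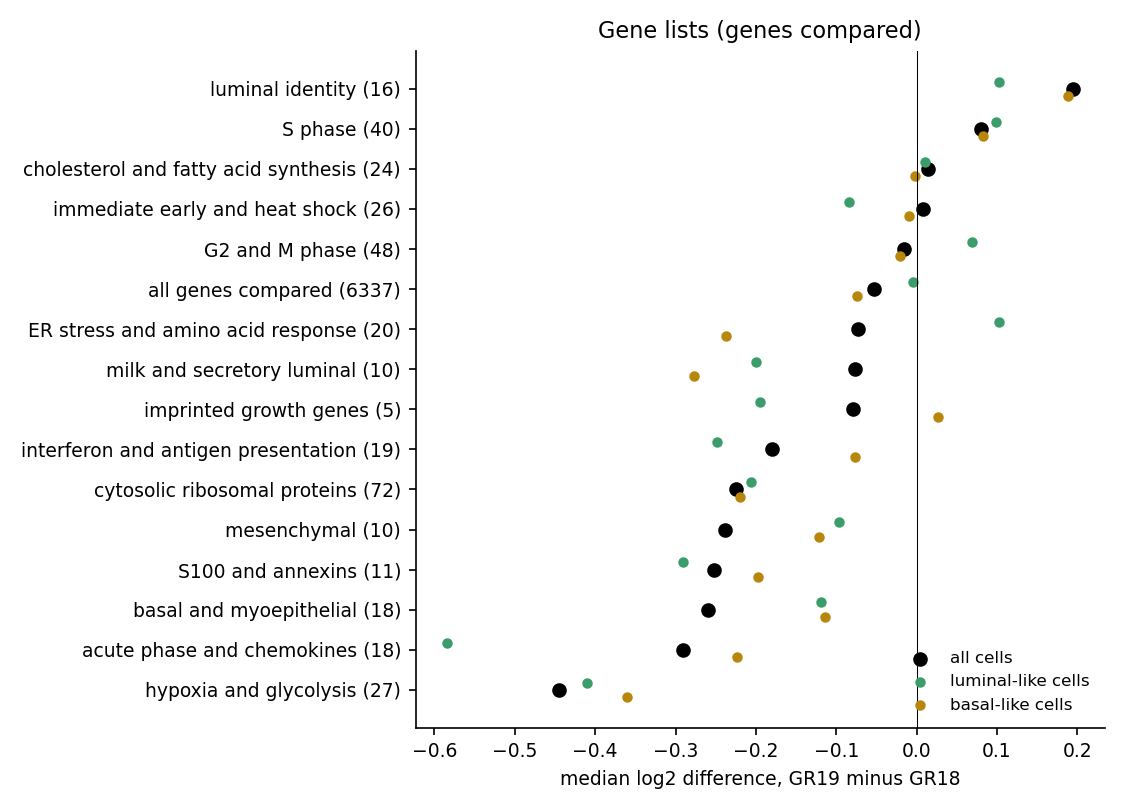
Median log2 difference, GR19 minus GR18, of each gene list with at least 5 compared genes (number in brackets), over all kept cells and within luminal-like and basal-like cells. Hypoxia and glycolysis genes lie lowest at -0.44 and luminal identity genes highest at 0.20.

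The share of cells with a UMI gave a like picture once depth was made equal. Each cell was thinned to 5000 UMIs, which left out 4 cells of GR18 and 4 of GR19. The median difference in share over all 6337 genes was -0.689 points. Of these genes, 7 had a share at least 20 percentage points higher in GR19 and 9 a share at least 20 points higher in GR18. Csn3 was seen in 42.2% of thinned GR18 cells (95% Clopper-Pearson interval 37.1% to 47.4%) and 74.9% of thinned GR19 cells (70.03% to 79.3%), and in 68.3% and 95.03% of unthinned cells. Isyna1 was seen in 13.4% and 41.3% of thinned cells, Serinc3, a membrane protein of the serine incorporator family, in 59.2% and 84.1%, and Chi3l1, a secreted chitinase-like protein, in 70.7% and 92.2%. Elf5 was seen in 4.93% (2.95% to 7.68%) and 27.7% (23.1% to 32.6%).

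In the other direction, Snd1 showed the widest gap, with 61.4% of thinned GR18 cells (56.2% to 66.4%) and 29.9% of thinned GR19 cells (25.2% to 34.9%), against 55.7% of GR17 cells. Krt5 was seen in 67.1% and 39.1% of thinned GR18 and GR19 cells, Crip1 in 59.7% and 32.4%, and Mt2 in 86.3% and 60.9%. Tkt, the transketolase of the pentose phosphate pathway, was seen in 70.7% and 45.5%, and Scd2, a stearoyl-CoA desaturase, in 68.8% and 45.3%. Lgals1, the lectin galectin-1, was seen in 69.6% and 49.2%, Swi5, a recombination repair factor, in 54.5% and 34.4%, and Ddit4, a stress-induced inhibitor of mTORC1, in 78.4% and 58.4%. Scd2, Swi5 and Lgals1 had lower GR19 values than the other libraries, with 71.2%, 53.2% and 84.5% of thinned GR17 cells. Tkt and Ddit4 differed by less than 2-fold in CPM, at 258 against 148 CPM and 324 against 219 CPM. Swi5 was also under 2-fold, with a log2 difference of -0.82.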

How the data were processed

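For the single-cell plates the authors deposited counts of UMIs per gene and well, and for the bulk lines counts of reads per Ensembl gene, both without normalization. The submitters' processing notes name STAR 2.4.2a, Picard, R 3.6.1, Seurat, HTSeq, edgeR and DESeq, with builds NCBIM37 and mm9. In bulk, 71.6% to 83.9% of reads fell in rows that name no gene and were left out, leaving 3050323 to 4678497 reads. Wells with at least 1000 UMIs outside ERCC rows were kept and no doublet caller was run. UMIs were summed per library and scaled to CPM, and genes with at least 20 CPM on average over GR18 and GR19 were compared with 1 CPM added. CPM have exact Poisson, ratios exact conditional binomial and shares Clopper-Pearson intervals at 95%, for counting error only. Clusters were made with Seurat 5.3.0 in R 4.3.3 (LogNormalize, 2000 variable genes, 10 principal components, 20 neighbours, resolution 0.5, genes in at least 3 cells), and a cluster was named from fixed markers. The steps used Python 3.11.15, pandas 2.3.3 and scipy 1.17.1. Of these steps, the ratio of library sums and its interval were tested on simulated counts. These were drawn with Poisson error alone, as the interval assumes, so the test does not cover spread between cells or libraries. Genes were named if they were Csn3, Krt14 or Sox4, among the 15 largest ratios or the 10 largest differences in thinned share in either direction, or among the 4 largest ratios of a list. The comparison, its markers and the lists were chosen with earlier results of these data known.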

Additional observations from a re-analysis of the deposited data

Results flagged for a closer look

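Trim46 stood on opposite sides of the control in both SOX4KO libraries, with a log2 difference from GR17 of -1.50 in GR18 and 2.20 in GR19, and no other of the 6337 compared genes was at least 2-fold from GR17 on opposite sides. The difference was not tested, as neither SOX4KO library has a replicate. The wells left out of GR19 for few UMIs held 18 Csn3 UMIs, against 1 in GR18 and 0 in GR17, and 11 of the 18 were in 1 well. Groups of 1 to 3 samples were too small for a search for outlying samples.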

How the results depend on the processing

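The count of 49 genes past 2-fold (25 higher in GR19, 24 higher in GR18) moved to 17 (9 and 8) with a minimum of 50 CPM, 128 (65 and 63) with 5 CPM, 25 (12 and 13) with 10 CPM added and 235 (86 and 149) at 1.5-fold. The log2 difference of Csn3 was 2.24 without mitochondrially encoded genes and Rn45s in the total, 2.08 with each cell's CPM averaged, 2.08 without wells over 2 times the median, 2.38 without the 10 highest cells and 1.93 with equal cluster weights. That of Krt14 was -0.63 without mitochondrially encoded genes and Rn45s, -0.66 with a TMM factor (edgeR 4.0.16), -0.75 without the 10 highest cells and -0.53 with equal cluster weights. The chromosome 1 median, an alternative added after seeing the data, ranged from 0.74 with 10 CPM added and 0.79 with a minimum of 50 CPM to 0.98. Thinning to 10000 UMIs gave 11 genes with a share at least 20 points higher in GR19 and 15 in GR18, and no thinning gave 22 in GR19. At resolution 0.3 only 3 clusters could be compared. Across the settings GR19 was the farther library for 53.2% to 76% of genes past the fold. The cause of these shifts was not tested. Among 1098 values of named genes, a reversal was counted only for genes at least 2-fold apart in the main setting, and none of these reversed. A change of sign in named genes under 2-fold was not counted. Of 164 list medians 8 moved, among them the milk list, from -0.08 to 0.02 with a minimum of 50 CPM, 0.09 without mitochondrially encoded genes and Rn45s and -0.24 with equal cluster weights, and the basal list, from -0.26 to -0.08 with equal cluster weights. No library could be left out, since GR18 and GR19 are the only SOX4KO single-cell libraries. No paired analysis was possible because the labels give these libraries no replicate numbers (the numbers used here only name samples). Depth limits genes under 20 CPM.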
